A study of Mus musculus with 9 samples.

Results

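Matricellular proteins are secreted into the extracellular matrix, where most of them act on cells and on other matrix molecules rather than as load-bearing fibres. Transcripts of 9 genes of this kind, Postn, Thbs1, Thbs2, Thbs3, Thbs4, Tnc, Sparc, Spp1 and Smoc2, and of Fn1, which encodes the matrix glycoprotein fibronectin, were followed in the infarct border zone of mouse hearts. The 10 genes were found among 53465 gene IDs of the count files by their Ensembl ID, and all 10 were among the 13825 genes with enough counts to be tested. The hearts came from NOD-SCID mice, an immunodeficient strain that lacks mature T and B lymphocytes. Sham-operated hearts gave 3 libraries, hearts with a ligated coronary artery gave 3, and hearts that had both the ligation and an implant of FOXO3-GE-MPCs, hereafter the cell group, gave 3. The source field of cell replicates 2 and 3 carries other FOXO numbers, while their titles and treatment fields name FOXO3. All samples are labelled as infarct border zone, the sham hearts included. Age, sex, the time after surgery and whether a library is 1 heart are not given in the sources used here. What the letters GE-MPCs stand for is not given there either, nor how many cells were implanted.

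In a healthy adult heart most matricellular genes are kept low, and after an infarct they are induced in the wound, where a provisional matrix rich in fibronectin is later replaced by collagen. Periostin (Postn), tenascin-C (Tnc) and osteopontin (Spp1) bind integrins and are classical markers of cardiac wound matrix. SPARC and its relative SMOC2 bind calcium, and SPARC takes part in collagen handling. Thrombospondins are calcium-binding multimers, of which THBS1 and THBS2 form trimers and inhibit angiogenesis, while THBS3 and THBS4 form pentamers.

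Libraries held 4549268 to 7515052 gene counts, the lowest in ligation replicate 1 and the highest in ligation replicate 3. Levels are given as CPM, the usual unit of counts scaled to library depth, here with TMM factors, so that 3 counts were worth 0.375 to 0.639 CPM. Mitochondrially encoded genes took 19.1% to 19.9% of gene counts in sham and 12.5% to 14.3% in the other libraries. The summed level of 5 cardiomyocyte markers was 27178 to 28518 CPM in sham, 21916 to 23266 CPM after ligation and 20777 to 21675 CPM with cells, with 1 of the 5 called higher and 2 lower after ligation. After ligation 4 of 4 endothelial markers (summed 1602 to 1705 CPM in sham, 1056 to 1126 CPM after ligation) and 3 of 4 pericyte markers were lower, and the part of these shifts in the results was not tested. The summed level of 4 lymphocyte markers was at most 0.890 CPM, with Cd3d and Ms4a1 at 0 in all 9 libraries. The column headers of sham replicates 1 and 2 share a name stem, as do those of ligation replicates 2 and 3. What the stem stands for is not given in the sources used here, so p-values measure the spread between these libraries, which may be technical. When libraries with a shared stem were summed to 1 library, an alternative chosen after seeing the data, the same numbers of the 10 genes passed the test in each comparison as with 9 libraries.

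After ligation 8 of the 10 genes rose and 1, Thbs2, fell. Spp1 rose most, 12.1-fold, followed by Postn (5.06-fold), Tnc (4.51-fold), Fn1 (3.12-fold), Thbs4 (2.97-fold), Thbs1 (2.42-fold), Thbs3 (1.62-fold) and Sparc (1.57-fold). Smoc2 did not pass. A gene passed at an adjusted p under 0.05 in the quasi-likelihood test of edgeR, adjusted over all genes tested by the Benjamini-Hochberg method. Of all genes tested 38.2% passed in this comparison, 20.1% higher and 18.0% lower. The CPM ranges of sham and ligation did not overlap for any of the 10 genes, which held for 47.6% of all genes. Over the 10 genes the median log2 fold change was 1.42, against 0.01 over all genes tested. With library totals alone in place of TMM factors, 4966 genes were higher and 1346 lower after ligation, against 2783 and 2494, and the median gene moved from 0.01 to 0.20. All fold changes here therefore refer to a median gene held near 0. In whole tissue, more cells of a type and more RNA per cell cannot be told apart, nor can fewer cells and less RNA per cell.

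**Figure D1:**
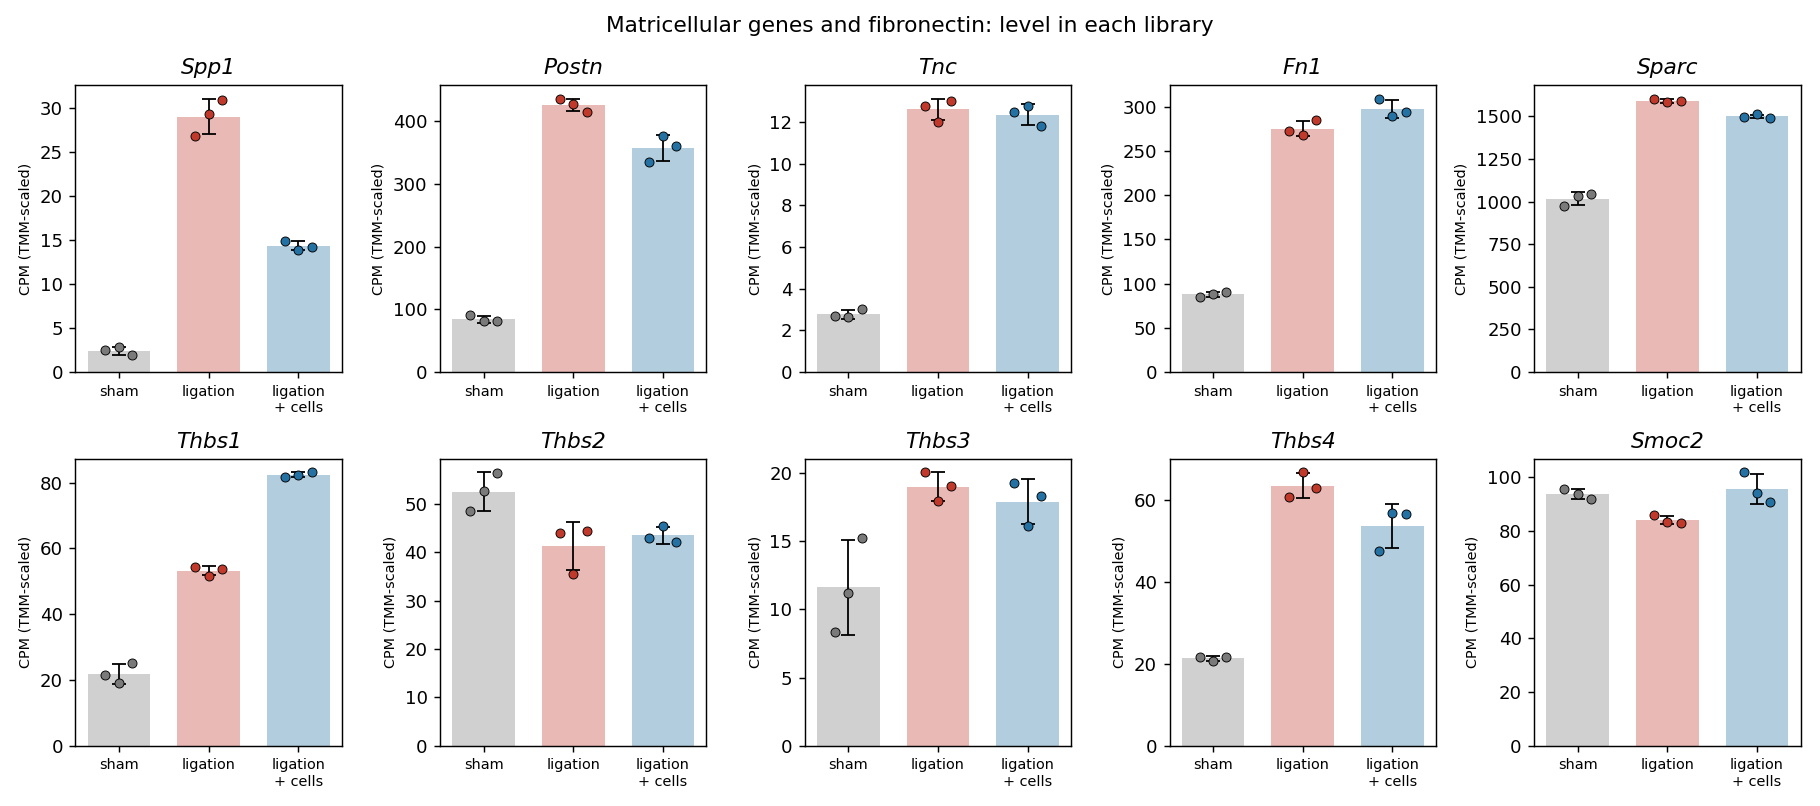
Level of each gene in CPM (vertical axis, from 0) in the 3 groups (horizontal axis): points are libraries, bars are means and error bars are SDs over 3 libraries. The libraries of the 3 groups do not overlap for Spp1, Postn, Thbs1, Thbs4, Fn1 and Sparc. With cells against ligation Spp1, Postn and Thbs1 passed, whereas Thbs4, Fn1 and Sparc did not. Tnc, Fn1 and Sparc stay near their ligation level in the cell group (for Sparc 1593 CPM after ligation and 1501 CPM with cells).

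Between the cell group and ligation alone, 3 of the 10 genes passed. Thbs1 rose further (1.55-fold), Spp1 fell (2.03-fold lower) and Postn fell slightly (1.19-fold lower). Of all genes tested 9.87% passed in this comparison, 4.19% higher and 5.69% lower, and the median log2 fold change over the 10 genes was -0.05. The ranges did not overlap for 7 of the 10, against 27.2% of all genes. With library totals alone 436 genes were higher and 927 lower with cells, against 579 and 786, and 5 of the 10 genes passed, Thbs4 and Sparc also being lower. Against sham the cell group had 8 genes higher and 1, Thbs2, lower, where 40.9% of all genes passed, 21.0% higher and 20.0% lower. There 9 of the 10 had ranges that did not overlap, against 49.8% of all genes. With library totals alone that split was 4612 higher and 1698 lower, against 2899 and 2762. Each group enters 2 of the 3 comparisons, so their values are set side by side and are not independent. No group is labelled as ligation with a vehicle or with other cells. Effects of the injection, of any cells and of FOXO3-GE-MPCs in particular therefore cannot be told apart.

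**Figure D2:**
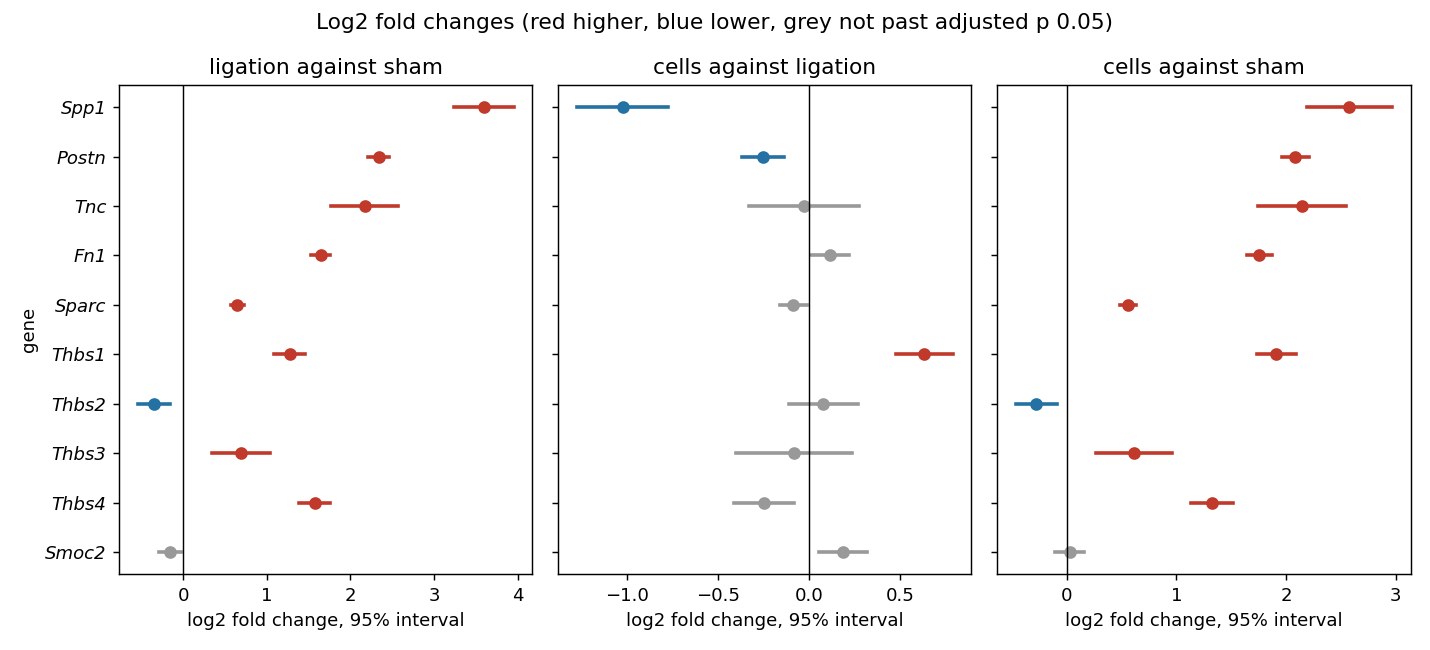
Log2 fold change (horizontal axis) of each gene (vertical axis) in the 3 comparisons, with 95% intervals from the edgeR fit; red genes were called higher, blue lower and grey genes did not pass. The middle panel has 3 coloured genes, Thbs1 at 0.63, Postn at -0.25 and Spp1 at -1.02, and its axis is narrower than those of the other panels.

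Among the 7 members with a RefSeq promoter entry, the 4 with the largest fold after ligation were Spp1, Postn, Tnc and Thbs4. The 250 bases before their annotated start (GRCm38.p6) are shown. Fn1 rose by a larger fold than Thbs4 (3.12 against 2.97) but had no promoter entry. In CPM, Sparc rose more than any of these 4, from 1018 to 1593 CPM. For genes with more than 1 start the entry nearest to the gene start of the GENCODE annotation was taken. Capitals mark every match, on either strand, to 5 motifs. The AP-1 motif was searched as TGANTCA. For TEAD factors the letters GGAATG were used. The TATA box was searched as TATAAA and the EGR motif as GCGNGGGCG. The CArG box was searched as well.
Spp1, chr5:104434861-104435110, plus strand: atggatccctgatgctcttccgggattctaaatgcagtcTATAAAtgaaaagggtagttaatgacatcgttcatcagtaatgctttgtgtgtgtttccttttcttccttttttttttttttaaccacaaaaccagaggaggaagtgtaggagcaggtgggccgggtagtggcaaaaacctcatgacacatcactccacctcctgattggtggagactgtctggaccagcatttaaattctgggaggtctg
Postn, chr3:54360857-54361106, plus strand: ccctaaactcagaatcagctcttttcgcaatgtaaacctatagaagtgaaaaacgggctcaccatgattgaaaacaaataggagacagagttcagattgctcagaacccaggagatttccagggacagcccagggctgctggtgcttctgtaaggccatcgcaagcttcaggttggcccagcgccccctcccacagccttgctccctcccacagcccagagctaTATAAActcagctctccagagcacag
Tnc, chr4:64047016-64047265, minus strand: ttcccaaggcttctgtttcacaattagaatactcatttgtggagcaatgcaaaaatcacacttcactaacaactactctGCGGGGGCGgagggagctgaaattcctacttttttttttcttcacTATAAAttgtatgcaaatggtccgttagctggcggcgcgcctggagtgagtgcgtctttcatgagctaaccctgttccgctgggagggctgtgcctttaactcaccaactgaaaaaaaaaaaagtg
Thbs4, chr13:92794819-92795068, minus strand: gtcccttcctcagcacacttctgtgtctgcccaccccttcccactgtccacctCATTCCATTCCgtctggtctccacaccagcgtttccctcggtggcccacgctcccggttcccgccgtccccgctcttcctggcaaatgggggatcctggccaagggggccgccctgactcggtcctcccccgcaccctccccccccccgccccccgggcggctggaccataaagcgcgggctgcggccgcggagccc

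The Postn window held a TATA match 26 bases before the start. The Tnc window held a TATA match 126 bases and an EGR match 171 bases before the start, and the Spp1 window a TATA match 211 bases before it. The Thbs4 window held TEAD matches on the reverse strand that start 197 and 192 bases before the gene start and overlap each other at their ends. Over 32851 promoter windows of the same length, 12.4% held a TATA match, 4.70% an EGR match, 12.6% a TEAD match, 6.75% an AP-1 match and 1.47% a CArG match. No motif was found in all 4 windows, while a TATA match was found in those of Spp1, Postn and Tnc. A match describes letters in the window and not a bound site.

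Spp1 (ENSMUSG00000029304, GRCm38 chromosome 5, 104435118 to 104441050) encodes osteopontin, a secreted phosphoprotein made by macrophages and other cells, which binds integrins and CD44. Its level was 2.49, 2.80 and 1.90 CPM in sham replicates 1 to 3, on 12 to 17 counts per library. It was 26.8, 29.4 and 30.9 CPM after ligation, and 14.9, 13.9 and 14.3 CPM with cells. Every cell library lay below every ligation library and above every sham library. The log2 fold change was 3.60 after ligation (SE 0.170, edgeR adjusted p 8.82e-13) and -1.02 with cells against ligation (SE 0.120, edgeR adjusted p 5.60e-06). Against sham it was 2.57 in the cell group (SE 0.186, edgeR adjusted p 5.65e-10). Of the exon bases of Spp1, 18.8% are shared with Gm42793 on the same strand, where a read cannot be assigned to 1 gene, and the effect on its level was not tested.

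Marker levels of macrophages and of mesothelial or epicardial cells moved with Spp1 after ligation and with cells. The summed level of 6 macrophage markers (Cd68, Adgre1, Csf1r, C1qa, C1qb, Cd14) ran from 325 to 359 CPM in sham, 515 to 542 CPM after ligation and 209 to 212 CPM with cells. All 6 markers were called higher after ligation and all 6 lower with cells, where 5 of them were also lower than in sham. Spp1 in the cell group was above sham, whereas the macrophage sum was below it. The summed level of 4 mesothelial or epicardial markers (Msln, Upk3b, Wt1, Lrrn4) ran from 30.2 to 39.7 CPM in sham, 190.5 to 227 CPM after ligation and 157 to 163 CPM with cells, and 4 of 4 were higher after ligation and 2 of 4 lower with cells. No marker of either list was at 0 in a whole group. The part of either cell type in the Spp1 result was not tested.

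**Figure D3:**
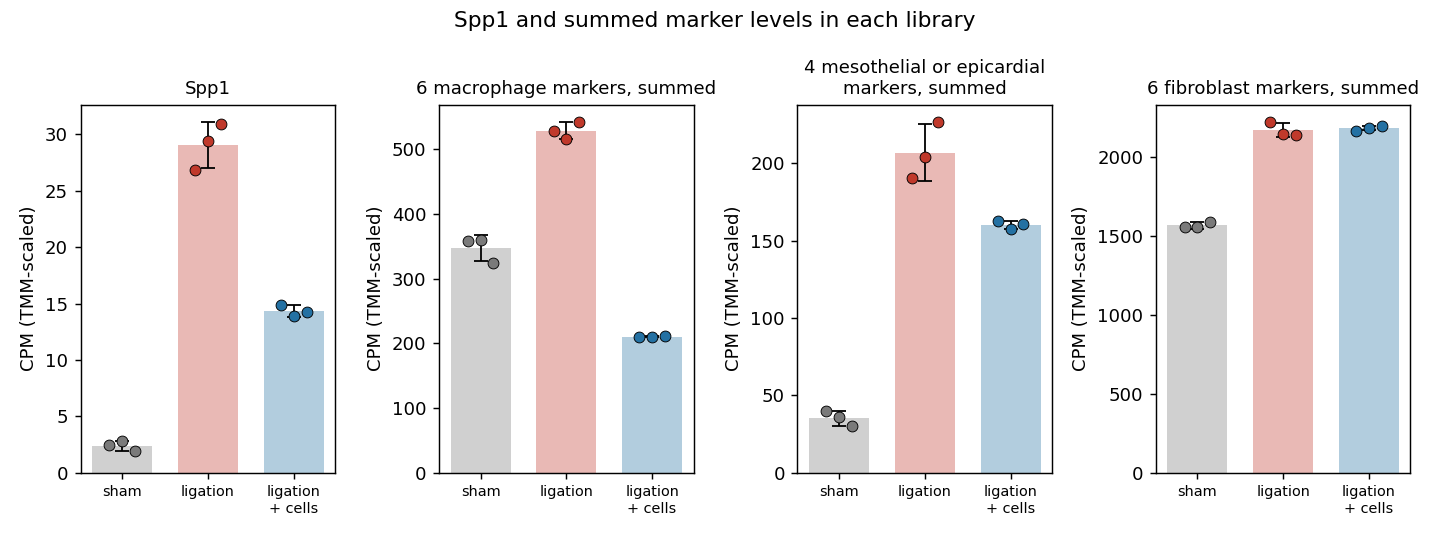
Level in CPM (vertical axes, from 0) of Spp1 and of the summed macrophage, mesothelial or epicardial, and fibroblast markers by group (horizontal axes); points are libraries, bars means and error bars SDs over 3 libraries. Spp1 in the cell group (mean 14.3 CPM) lies above sham (2.40 CPM), whereas the macrophage sum in the cell group (211 CPM) lies below sham (348 CPM).

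Postn (ENSMUSG00000027750, chromosome 3, 54361109 to 54391037) encodes periostin, a marker of activated fibroblasts that supports collagen assembly. It was at 91.1, 80.9 and 81.0 CPM in sham, 436, 427 and 416 CPM after ligation and 335, 376 and 361 CPM with cells. The 3 groups did not overlap, and the cell group lay much nearer to ligation than to sham. The log2 fold change was 2.34 after ligation (SE 0.0600, edgeR adjusted p 4.27e-17) and -0.25 with cells against ligation (SE 0.0544, edgeR adjusted p 0.00374), with a 95% interval from -0.37 to -0.14. The summed level of 6 fibroblast markers (Pdgfra, Tcf21, Dcn, Lum, Col1a2, Ddr2) was 1555 to 1591 CPM in sham, 2142 to 2220 CPM after ligation and 2167 to 2197 CPM with cells. After ligation 4 of the 6 were called higher and 1 lower, and Col1a2 alone went from 272 to 664 CPM. Summed over 4 myofibroblast and smooth muscle markers (Acta2, Tagln, Myh11, Cnn1), the level was 539 to 573 CPM in sham, 400.2 to 419.6 CPM after ligation and 447 to 456 CPM with cells, with 2 of 3 tested called lower after ligation and 1 higher with cells, each time opposite to Postn. Between cells and ligation 0 of the 6 fibroblast markers passed in the edgeR test, whereas Postn did, and the difference between them was not tested. The part of fibroblast number in the Postn rise after ligation and in its fall with cells was not tested.

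Tnc (ENSMUSG00000028364, chromosome 4, 63959785 to 64047015) encodes tenascin-C, a large hexameric glycoprotein that loosens cell adhesion and is scarce in healthy adult myocardium. It was at 2.67, 2.64 and 3.02 CPM in sham, 12.8, 12.01 and 13 CPM after ligation and 12.5, 12.8 and 11.8 CPM with cells. The ligation and cell libraries overlapped and lay apart from sham. After ligation the log2 fold change was 2.17 (SE 0.192, edgeR adjusted p 1.38e-08). Cells against ligation gave -0.03 (edgeR adjusted p 0.936), with a 95% interval from -0.33 to 0.28. It rested on 60 to 104 counts per library in these 2 groups.

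Fn1 (ENSMUSG00000026193, chromosome 1, 71585520 to 71653200) encodes fibronectin, the scaffold on which periostin, tenascin-C and collagen assemble. It was at 85.1, 88.6 and 90.6 CPM in sham, 273, 268 and 285 CPM after ligation and 309, 290.2 and 294 CPM with cells. Every cell library lay above every ligation library, but the gap was small next to the distance from sham. Its rise after ligation was 1.64 on the log2 scale (SE 0.0543, edgeR adjusted p 2.80e-15). Cells against ligation gave 0.11 (95% interval 0.01 to 0.22) and did not pass (edgeR adjusted p 0.180). Counts per gene do not separate the splice forms of fibronectin.

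Sparc (ENSMUSG00000018593, chromosome 11, 55394500 to 55423183), which binds collagen and calcium, was by far the most abundant member in every library. It was at 975, 1033 and 1045 CPM in sham, 1605, 1582 and 1592 CPM after ligation and 1496, 1513 and 1493 CPM with cells. Ligation raised it by 0.65 on the log2 scale (SE 0.0361, edgeR adjusted p 1.31e-11), a small fold on a high level. Every cell library lay below every ligation library, yet the difference of -0.09 (95% interval -0.16 to -0.01) did not pass (edgeR adjusted p 0.149).

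Smoc2 (ENSMUSG00000023886, chromosome 17, 14279506 to 14404790), a SPARC-related modular calcium-binding protein, did not pass in any of the 3 comparisons. It was at 95.8, 93.7 and 92.1 CPM in sham, 85.9, 83.5 and 83.0 CPM after ligation and 102, 94.2 and 90.9 CPM with cells. The ligation libraries were the lowest of the 9, and the cell and sham libraries overlapped. For ligation against sham the log2 fold change was -0.16 (95% interval -0.29 to -0.03, edgeR adjusted p 0.0529) and with cells against ligation 0.19 (95% interval 0.06 to 0.32, edgeR adjusted p 0.0648). After ligation it passed as lower with DESeq2 size factors, in the fit of 2 groups and without mitochondrially encoded genes, and turned to 0.03 with library totals alone. In the cell group against sham the difference was 0.03 (edgeR adjusted p 0.753), and it passed as higher with library totals alone (0.19).

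The 4 thrombospondins responded unequally. Thbs1 (ENSMUSG00000040152, chromosome 2, 118111876 to 118127133), which can activate latent TGF-beta and inhibits angiogenesis, was at 21.5, 19.1 and 25.1 CPM in sham, 54.3, 51.7 and 53.6 CPM after ligation and 81.7, 82.4 and 83.1 CPM with cells. The 3 groups stood apart in rising order, and Thbs1 was the only one of the 10 genes called higher both after ligation and with cells. The log2 fold change was 1.28 after ligation (SE 0.0892, edgeR adjusted p 4.16e-10) and 0.63 with cells against ligation (SE 0.0748, edgeR adjusted p 6.17e-06), with a 95% interval from 0.48 to 0.79. Against sham it was 1.91 in the cell group (SE 0.0851, edgeR adjusted p 3.32e-13). Platelets also carry thrombospondin 1, and the summed level of 4 platelet markers (Pf4, Ppbp, Itga2b, Gp1bb) was 36.5 to 38.1 CPM in sham, 24.7 to 30.2 CPM after ligation and 13.9 to 16.8 CPM with cells. Of these 4, 3 were tested and 1 was called lower in each comparison, while Thbs1 was called higher. Summed over 4 genes listed as skeletal muscle markers (Acta1, Myh4, Tnni2, Myl1), the level stood in the same order as Thbs1. It was 977 to 1036 CPM in sham, 1358 to 1441 CPM after ligation and 1984 to 2021 CPM with cells. Of these genes 3 were tested, and 2 were called higher in each comparison. The other tested gene was called lower with cells against both ligation and sham. Myh4 was at 0 in sham and with cells. Whether the listed genes mark skeletal muscle in heart tissue was not tested. The part of either cell type in the Thbs1 result was not tested either.

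Thbs2 (ENSMUSG00000023885, chromosome 17, 14665500 to 14694235), its trimeric relative, was at 48.6, 52.7 and 56.5 CPM in sham, 44.1, 35.6 and 44.4 CPM after ligation and 43.0, 45.5 and 42.1 CPM with cells. Sham lay above both ligated groups, which overlapped each other. It fell by 0.35 on the log2 scale after ligation (SE 0.0906, edgeR adjusted p 0.00402) and differed by -0.28 between the cell group and sham (SE 0.0890, edgeR adjusted p 0.0175). Neither passed with library totals alone, where the differences were -0.16 and -0.12. The second was also lost without sham replicate 3, cell replicate 1 or cell replicate 3 (edgeR adjusted p 0.0933, 0.0513 and 0.0627). Between cells and ligation the log2 difference was 0.08 (95% interval -0.11 to 0.27).

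Thbs4 (ENSMUSG00000021702, chromosome 13, 92751590 to 92794818), a pentameric thrombospondin found in stressed heart muscle and tendon, was at 21.7, 20.8 and 21.7 CPM in sham, 60.7, 66.9 and 63.1 CPM after ligation and 47.5, 57.0 and 56.6 CPM with cells. It rose by 1.57 on the log2 scale after ligation (SE 0.0908, edgeR adjusted p 2.13e-11). The difference with cells was -0.25 (95% interval -0.41 to -0.08), which did not pass (edgeR adjusted p 0.0539), while the groups did not overlap. It passed as lower with library totals alone, upper quartile factors, limma-voom and without cell replicate 2. It was -0.16 without cell replicate 1 (edgeR adjusted p 0.262), and the adjusted p was 0.203 in edgeR without ligation replicate 2 and 0.163 with DESeq2. Thbs3 (ENSMUSG00000028047, chromosome 3, 89215180 to 89226837), the other pentameric member, was at 8.37, 11.2 and 15.2 CPM in sham, 20.03, 17.9 and 19.0 CPM after ligation and 19.3, 16.1 and 18.3 CPM with cells. Its sham libraries had the widest relative spread of any member and group, a coefficient of variation of 29.8%. It rose by 0.69 on the log2 scale after ligation (SE 0.166, edgeR adjusted p 0.00220) and differed by -0.08 with cells (95% interval -0.40 to 0.24). Thbs3 shares 6.59% of its exon bases with Mtx1 on the opposite strand, and the strand setting of the counting is not given in the sources used here.

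The make-up of the transcripts of these 4 thrombospondins differed between groups. Comp, the other thrombospondin, is outside the 10 genes and enters none of these shares, although its level rose further after ligation. Levels divided by exon length allow genes to be compared, and the share of each gene in the summed CPM per kilobase of the 4 is given. Thbs2 was the largest at 37.5% ± 1.27 (SD, n = 3) in sham and took 15.6% ± 1.78 after ligation. Thbs4 went from 32.6% ± 2.49 to 51.0% ± 2.72 and was the largest of these 4 in ligated hearts. In the cell group Thbs1 held 34.1% ± 1.11, against 23.1% ± 0.516 after ligation and 18.0% ± 1.46 in sham, and Thbs4 held 40.9% ± 2.57. The ratio of Thbs1 to Thbs2 per kilobase was 0.480 ± 0.0539 in sham, 1.50 ± 0.154 after ligation and 2.19 ± 0.0953 with cells. This ratio, Thbs4 to Thbs3 and Spp1 to Postn were not among the planned tests, and 9 differences were tested. The Thbs4 to Thbs3 ratio was 2.87 ± 0.867, 4.93 ± 0.511 and 4.45 ± 0.796, and the cell group overlapped both ligation (exact permutation p 0.5) and sham (exact permutation p 0.2). Spp1 to Postn was 0.150 ± 0.0298, 0.360 ± 0.0336 and 0.213 ± 0.0204, with no overlap between groups. The 3 groups did not overlap in the Thbs1 to Thbs2 ratio, with an exact two-sided permutation p of 0.1 in each comparison (0.129 after Benjamini-Hochberg adjustment), the smallest that 3 against 3 libraries allow.

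**Figure D4:**
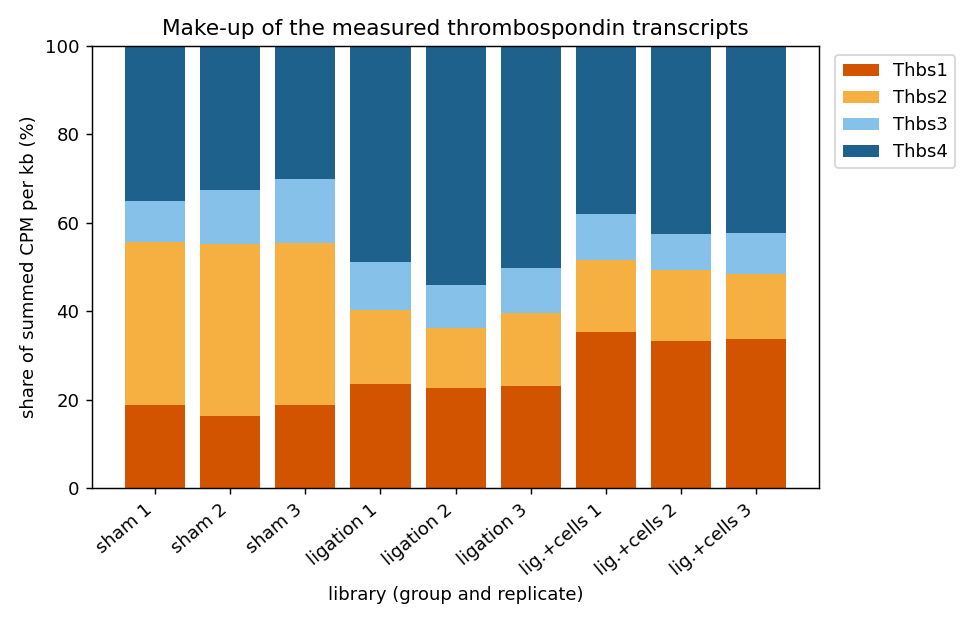
Share of each thrombospondin gene in the summed CPM per kilobase of the 4 (vertical axis, percent) in each of the 9 libraries (horizontal axis). Thbs2 is the largest share in sham (mean 37.5%) and Thbs4 in ligation (51.0%), while in the cell group Thbs4 (40.9%) is followed by Thbs1 (34.1%).

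Per kilobase of exon, Sparc led in every group, at 269 CPM per kilobase in sham, 421 after ligation and 396 with cells. In sham it was followed by Smoc2 (13.5), Postn (9.69), Fn1 (7.54), Thbs2 (7.51), Thbs4 (6.51), Thbs1 (3.61), Thbs3 (2.41), Spp1 (1.46) and Tnc (0.357). Fn1 and Thbs2 were closer to each other there than their SDs of 0.241 and 0.566. After ligation Postn (49.0), Fn1 (23.6), Thbs4 (19.3) and Spp1 (17.6) had passed Smoc2 (12.1), and Thbs1 (8.76) had passed Thbs2 (5.91). With cells Spp1 (8.70) stood below Smoc2 (13.8) and Thbs1 (13.6), which with this length did not differ beyond the SD of 0.808 of Smoc2. The lowest in ligation and with cells were Thbs3 (3.94 and 3.71) and Tnc (1.62 and 1.59). With the length of the longest transcript the sham order was the same, but after ligation Smoc2 (21.2) came above Thbs4 (19.9) and Spp1 (19.3). With cells Smoc2 was at 24.1 on that scale and Thbs1 at 14.1, so that their closeness holds for the merged exon length alone.

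For each member the gene outside the 10 with the most similar profile was sought among 13785 genes, by the root mean square difference of centred log2 CPM over the 9 libraries, given as a description. Ccn2, which encodes connective tissue growth factor, was nearest to Postn (0.0888, against 1.07 for the median gene). It was at 82.8 ± 4.16 CPM in sham, 437 ± 19.8 CPM after ligation and 398 ± 7.58 CPM with cells. Mfap4, a microfibril-associated gene, was nearest to Tnc (0.0815), Thsd7a, which encodes a protein with thrombospondin repeats, to Thbs4 (0.0841) and Xirp2, a cardiomyocyte actin-binding gene, to Fn1 (0.0773). St14, an epithelial membrane protease, was nearest to Spp1 (0.169), followed by Ckmt1 (0.189) and by Upk3b (0.199), one of the mesothelial markers above. Genes after the nearest are named for Spp1 alone. St14 and Ckmt1 were at 0.891 and 0.842 CPM in sham and entered the search through the other groups. There St14 was at 12.7 and 6.83 CPM. Nearest to Sparc, Smoc2, Thbs2, Thbs3 and Thbs1 were Ppt1 (0.0323), Tra2a (0.0354), Dusp7 (0.0619), Pdxk (0.109) and Gm32849 (0.159). With a prior count of 5 in place of 2, Gm26809, Nox4 and Gm13443 became the nearest to Tnc, Fn1 and Thbs1. The 9 points share libraries and group means, so that any gene with the same group means scores well.

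The other matricellular genes, a list of 24 that includes CCN proteins, tenascins and SPARC relatives, held 16 genes with enough counts. After ligation 10 of the 16 rose and 3 fell, where 20.1% of all genes rose and 18.0% fell. The 10 include Cthrc1 and Ccn4, which were near or below the count minimum in sham (0.279 and 1.65 CPM) and owe their place among tested genes to the ligated groups, so the count is a description. Ccn4 and, among the collagens below, Col11a1 are named for this reason, after their values were seen. Comp, the fifth thrombospondin, rose most, from 16.4 ± 1.75 to 267 ± 9.64 CPM (log2 fold change 4.02, SE 0.0728, edgeR adjusted p 5.01e-19), more than any of the 10 members. It was at 253 ± 4.09 CPM with cells and did not pass against ligation (edgeR adjusted p 0.419). Summed over 4 chondrocyte markers, the level was higher after ligation as well, at 6.76 to 9.88 CPM in sham and 14.3 to 16.9 CPM after ligation, with 2 of 2 tested called higher, Matn1 at 0 in all groups and Col2a1 at 0 in sham. The sum of 3 tenocyte markers was 10.001 to 11.9 CPM in sham and 19.0 to 20.4 CPM after ligation, with the 1 tested called higher. The part of either in the Comp result was not tested. Ccn5, a CCN family member expressed in fibroblasts and smooth muscle, went from 18.9 ± 2.48 to 172 ± 5.33 CPM after ligation (edgeR adjusted p 2.87e-17). Cthrc1, a collagen triple helix repeat gene of activated fibroblasts, was at 0.279 ± 0.101 CPM in sham, below the level of 3 counts there, at 2.77 ± 0.737 CPM after ligation and at 5.76 ± 2.94 CPM with cells.

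In the cell group against ligation 2 of these 16 rose and 2 fell, with a median of -0.09, where 4.19% of all genes rose and 5.69% fell. Tgfbi, a close relative of periostin that macrophages also make, fell from 62.2 ± 6.14 to 29.1 ± 2.35 CPM (log2 fold change -1.09, edgeR adjusted p 1.59e-07), below the 36.4 ± 4.82 CPM of sham. The macrophage markers were lower in that comparison too, and their part in the Tgfbi result was not tested. Ccn3 rose from 7.85 ± 1.44 to 16.2 ± 3.67 CPM (edgeR adjusted p 0.00156) after having been lower in ligation than in sham, at 21.0 ± 4.86 CPM. Ccn1, an integrin-binding immediate-early product, rose from 56.5 ± 4.92 CPM in sham to 99.1 ± 2.91 CPM after ligation and 136 ± 5.57 CPM with cells (edgeR adjusted p 5.78e-05 against ligation). Ccn5 was the other gene that fell with cells, by 0.34 on the log2 scale (edgeR adjusted p 0.00104), and it is named here for its count. In the cell group against sham 10 rose and 3 fell, where 40.9% of all genes passed.

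Receptors and binding partners of these proteins, 16 genes that were all tested, rose in 9 and fell in 2 cases after ligation, with a median log2 fold change of 0.51, where 38.2% of all genes passed. Itgb5, an integrin subunit that pairs with Itgav to bind periostin and osteopontin, went from 129 ± 3.42 to 257 ± 19.7 CPM (edgeR adjusted p 2.51e-11). Cd44, an osteopontin receptor, went from 16.1 ± 0.932 to 31.8 ± 2.99 CPM (edgeR adjusted p 9.08e-07), and Itgb3 from 7.54 ± 0.777 to 13.6 ± 2.27 CPM (edgeR adjusted p 0.000696). Against ligation, 1 rose and 2 fell in the cell group, where 9.87% of all genes passed. Cd44 fell to 24.3 ± 2.16 CPM (log2 fold change -0.38, edgeR adjusted p 0.0258), the same direction as Spp1. Cd36, a thrombospondin and fatty acid receptor, rose from 1300.3 ± 71.7 to 1594 ± 38.9 CPM (log2 fold change 0.29, edgeR adjusted p 7.97e-05), the same direction as Thbs1. It stayed below the 1962 ± 93.1 CPM of sham. After ligation Cd36 had been called lower (log2 fold change -0.59), opposite to Thbs1. Calr, the chaperone calreticulin that also acts as a thrombospondin co-receptor, fell from 391 ± 5.11 to 335 ± 2.81 CPM with cells (edgeR adjusted p 0.00171), opposite to Thbs1. In the cell group against sham 9 rose and 2 fell, where 40.9% of all genes passed.

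**Figure D5:**
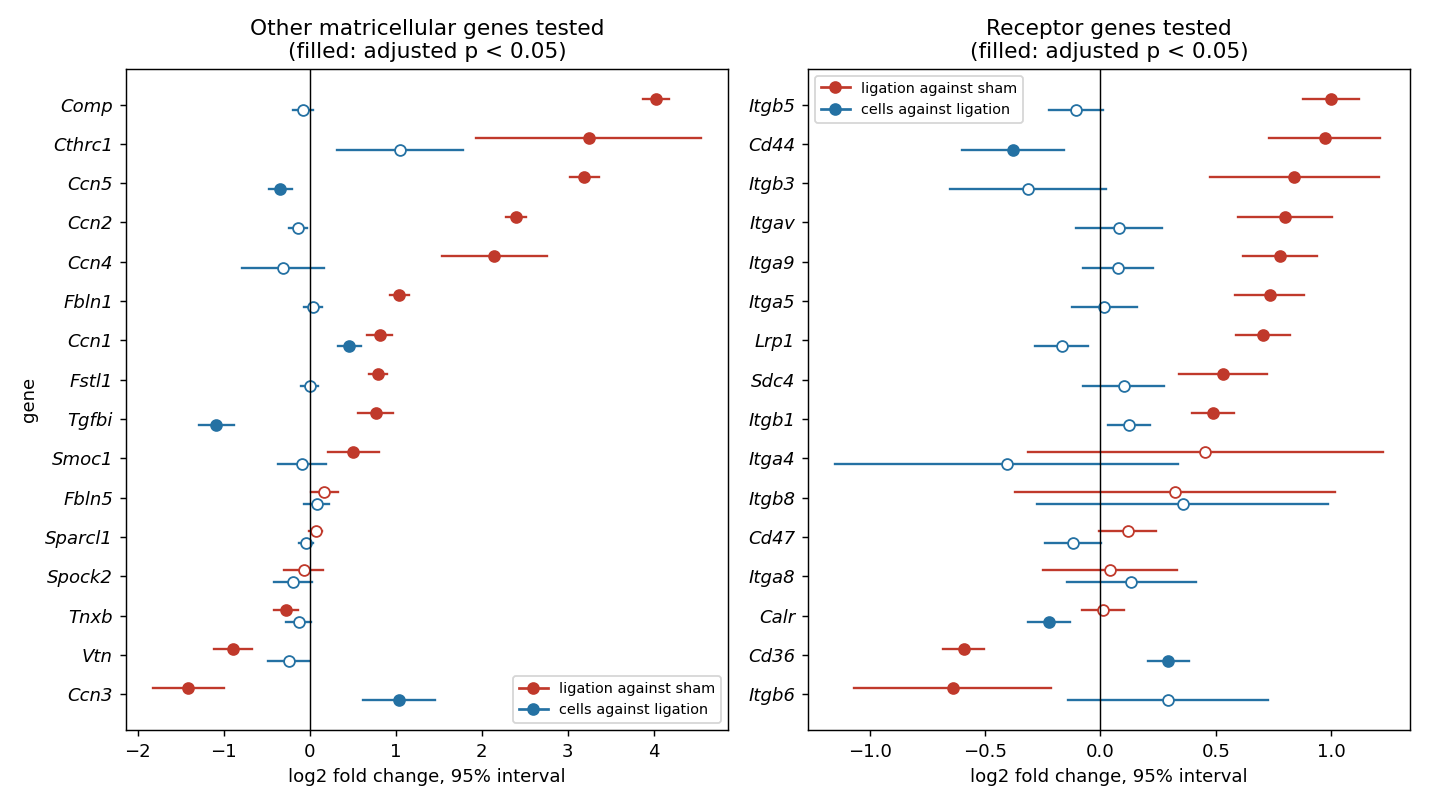
Log2 fold change with 95% interval (horizontal axes) of the 16 tested genes of each list (vertical axes): other matricellular genes and receptors, after ligation (red) and with cells against ligation (blue); filled points passed. Comp has the largest change after ligation (4.02), and Tgfbi has the lowest value with cells (-1.09).

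Of 9 fibrillar collagen genes, the fibres on which the matricellular proteins act, 8 were tested. After ligation 6 rose and 1 fell, where 38.2% of all genes passed. One of the 6, Col11a1, had at most 15 counts in any library and 0.0549 CPM in sham, and was tested through the ligated groups alone. Col3a1 (1.38), Col1a2 (1.29) and Col5a2 (1.29) were those named by the rule. In the cell group 0 of the 8 were higher than after ligation, and Col3a1 was the 1 gene lower (log2 fold change -0.23, edgeR adjusted p 0.000314), a share near the 9.87% of all genes that passed. Postn and Col3a1 thus differed with cells by a similar amount, at -0.25 and -0.23, and both remained far above sham.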

How the data were processed

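RNA from 9 heart samples was sequenced. The authors deposited whole-number read counts for each Ensembl gene, 1 file per library. The labels' protocols give TRIzol for the extraction and a NEBNext Ultra kit for the libraries. The submitters' processing notes name the build mm10. The aligner, the counter and its strand setting are not given in the sources used here. Each file ends with lines for reads in no gene and for ambiguous reads (4.14% to 4.91% and 8.09% to 8.72% of all counts in the file), which stayed out of library sizes and tests.

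Symbols, exon lengths and coordinates came from GENCODE M21 (GRCm38), which matched 53274 of 53465 IDs, and promoter sequence came from RefSeq (GRCm38.p6). Of the 10 members 7 had a promoter entry. In R 4.3.3, genes were kept with filterByExpr, scaled with TMM and fitted with edgeR 4.0.16 (glmQLFit, glmQLFTest) in 1 model with a mean per group over all 9 libraries, leaving 6 residual degrees of freedom. P-values were adjusted over 13825 genes with the Benjamini-Hochberg method. The SE is the log2 fold change divided by the square root of the F statistic. The steps were tested on simulated data.

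The members and lists were chosen with earlier results of these data known. All 10 members are named. From each list up to 3 genes per comparison are named, those with the largest change among genes that passed, had a mean of at least 1 CPM and did not overlap between groups. Alternatives were other scalings and filters, DESeq2 1.42.0, limma-voom (limma 3.58.1), fits of 2 groups, a replicate block, removal of mitochondrially encoded genes, a stricter threshold and leaving out each library. No replicate pair was a duplicate deposit, as all differed by more than counting noise (mean chi-square per gene 1.98 to 3.96). Pairs with a shared header stem (3.96 in sham, 2.30 in ligation) lay within that range, which does not settle whether they come from 1 heart. Figures were drawn with matplotlib 3.10.9.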

Additional observations from a re-analysis of the deposited data

How the results depend on the processing

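The log2 fold changes of the 10 genes were recomputed under 21 other settings. Of the 630 values, 610 kept their direction and their side of the threshold, 6 no longer passed, 9 newly passed and 5 changed sign. The sign changes were Smoc2 after ligation with library totals alone (0.0291), and, in fits without 1 library, Thbs2 with cells against ligation (-0.0268 to 0.144), Tnc with cells against ligation (-0.0657 to 0.00132) and Smoc2 in the cell group against sham (-0.0190 to 0.0630), none of them past the threshold where the sign changed. With library totals alone 5 members passed with cells against ligation in place of 3. With limma-voom 5 receptor genes passed there in place of 3, and fits without 1 library gave 2 to 4. At an adjusted p under 0.01, 739 genes in all passed with cells against ligation in place of 1365, as a stricter threshold must give fewer. Otherwise the cause was not tested. Fits without 1 library gave 9 members after ligation, 3 to 4 with cells against ligation and 8 to 9 in the cell group against sham. Spp1 with cells against ligation ran from -1.07 to -0.97, Thbs1 from 0.61 to 0.64 and Postn from -0.29 to -0.21. With the replicate number as a block 9, 3 and 9 members passed in the 3 comparisons, and 5134, 1230 and 5511 genes in all. The block changed no call of a member. Deviations of same-numbered libraries correlated between -0.12 and 0.14, and those of differently numbered libraries between -0.24 and 0.20. These values do not settle whether same-numbered samples share more than a number. Tnc, Spp1 and Thbs3 have fewest counts in sham, which limits the precision of their changes.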

Other observations

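The 10 genes together took 0.124% to 0.132% of gene counts in sham, 0.270% to 0.277% after ligation and 0.253% to 0.256% with cells. Counted without mitochondrially encoded genes, the shares were 0.155% to 0.164%, 0.311% to 0.316% and 0.296% to 0.299%. On another scale, the summed CPM per kilobase of the 10 genes, Sparc held 83.6% ± 0.460 (SD, n = 3) in sham, 74.8% ± 0.155 after ligation and 75.2% ± 0.214 with cells. Osteopontin (Spp1) held 0.454% ± 0.0916, 3.13% ± 0.228 and 1.65% ± 0.0724 of that sum, and periostin (Postn) 3.02% ± 0.312, 8.71% ± 0.200 and 7.80% ± 0.399. The members most alike in profile over the 9 libraries were Postn and Tnc, with a root mean square difference of 0.153 in centred log2 CPM at a prior count of 2. At a prior count of 5 that pair was at 0.192, and Tnc and Fn1 (0.124), Thbs2 and Smoc2 (0.166) and Thbs3 and Sparc (0.185) were closer. The least alike were Thbs2 and Spp1, at 1.61 and 1.52.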
